A study of Caenorhabditis elegans with 40 samples.

Results

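The genes described here are the 47 genes of the RNA count table whose symbols begin with rpl- or rla-, out of 9532 genes in that table. Nearly all encode proteins of the large ribosomal subunit of Caenorhabditis elegans, though not the whole subunit. The choice used symbols alone, and all 47 passed the filter on low counts. RNA sequencing (RNA-seq) and ribosome profiling (Ribo-seq, the sequencing of the RNA fragments that ribosomes cover) were done on lysates of whole worms grown at 16°C on OP50 bacteria. The mutants carried 1 null copy and 1 working copy of a ribosomal protein (RP) gene: rpl-5(0)/+, rpl-33(0)/+, rps-10(0)/+ and rps-23(0)/+. They were collected at day 4 as L4 larvae, the last larval stage. Their controls were wild-type animals with the balancer, a rearranged chromosome, of the same strain: mc6 in the headings (mIn1 in the study's methods) for rpl-5 and rpl-33, tmC20 for rps-10 and tmC5 for rps-23. Control animals were collected at day 3 as L4 larvae, matched by stage, and at day 4, matched by time. The labels call the day 4 controls pregravid adults, except for replicate 2 of the tmC20 and tmC5 RNA-seq, which they call L4. The study's methods call the replicates independent and biological. In whole animals, fewer cells of a type and less RNA per cell cannot be told apart.

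The large subunit holds the site where peptide bonds form, and a cell needs one copy of nearly every one of its proteins for each ribosome. RP mRNAs are among the most abundant messages of growing cells, and their genes tend to be expressed together. In worms many of these mRNAs receive a spliced leader, a short RNA joined to an acceptor site ahead of the coding sequence. Loss of 1 copy of human RPL5 or RPL35A, the counterpart of rpl-33, is a known basis of Diamond-Blackfan anaemia.

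The genes lie on all 6 chromosomes, 16 on I, 8 each on II, III and IV, 5 on V and 2 on X (WBcel235). Their longest annotated mRNAs run from 236 bases in rpl-39 to 1334 bases in rpl-3. The sequences below show 60 bases around the annotated 5′ end of 11 genes that the results turn on, 40 before it and 20 from it onwards, on the strand of the gene. They are from the RefSeq genome of WBcel235, at the gene starts of Ensembl release 115. Capitals mark an AG directly before the 5′ end, as at a splice acceptor, and the annotated start codon. First come the mutated genes rpl-5 (chrII:8569887-8569946, plus strand) and rpl-33 (chrII:7105523-7105582, plus).
rpl-5: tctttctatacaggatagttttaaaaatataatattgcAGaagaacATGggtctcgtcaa
rpl-33: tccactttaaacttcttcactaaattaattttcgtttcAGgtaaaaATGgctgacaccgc
Next are members that stayed behind the others in the rpl-5/rpl-33 libraries, rpl-3 (chrIII:3867814-3867873, plus), rpl-7A (chrIV:4390571-4390630, minus), rpl-20 (chrIV:4749759-4749818, minus) and rpl-22 (chrII:5055576-5055635, plus).
rpl-3: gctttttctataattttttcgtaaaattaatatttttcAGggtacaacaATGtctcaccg
rpl-7A: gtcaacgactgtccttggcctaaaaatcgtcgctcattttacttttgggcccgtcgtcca
rpl-20: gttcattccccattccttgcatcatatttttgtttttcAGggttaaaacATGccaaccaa
rpl-22: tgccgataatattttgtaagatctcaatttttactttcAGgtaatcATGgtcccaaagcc
Next are those with the largest changes there against both control ages, rpl-39 (chrV:7776060-7776119, minus) and rpl-36.A (chrII:11097185-11097244, minus).
rpl-39: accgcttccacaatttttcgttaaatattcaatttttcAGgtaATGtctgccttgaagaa
rpl-36.A: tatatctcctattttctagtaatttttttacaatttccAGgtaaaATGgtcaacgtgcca
Last are paralogs, rpl-11.1 (chrV:3586045-3586104, minus), rpl-11.2 (chrX:2242599-2242658, minus) and rpl-25.1 (chrX:4715138-4715197, plus).
rpl-11.1: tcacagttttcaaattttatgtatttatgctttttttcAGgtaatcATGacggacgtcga
rpl-11.2: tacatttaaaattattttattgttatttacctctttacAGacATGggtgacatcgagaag
rpl-25.1: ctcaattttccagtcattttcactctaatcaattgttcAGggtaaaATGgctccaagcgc
An AG ended the bases before the 5′ end of 40 of the 47 members (85.1%), against 45.1% of 9489 coding genes of the RNA table and 27.6% of 19973 annotated coding genes. The letters TTTCAG, the usual worm acceptor, searched on the strand of the gene at that place only, stood there in 25 members (53.2%), against 21.4% of the coding genes of the RNA table and 12.3% of all. Members on both sides of the results share these letters: rpl-3, rpl-20 and rpl-22, which stayed behind, have them, and so does rpl-39, which rose. Of the other genes shown, rpl-33 and rpl-11.1 have them, and rpl-5, rpl-36.A, rpl-11.2 and rpl-25.1 do not. rpl-7A has neither letters nor start codon in this window.

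Several libraries need a remark before the results. RNA-seq gave 20 columns, of which 17 were distinct. The rpl-5(0)/+ and rpl-33(0)/+ columns hold the same values in both replicates, so they were used once, as 2 libraries whose genotype cannot be told, and are called the rpl-5/rpl-33 pair. Where headings give no number, libraries are numbered in column order. The tmC20 replicate 2 column is the same under day 3 and day 4, and entered only comparisons with both ages together. Depth ran from 1017787 to 2384186 counts per library in RNA-seq and from 1081 to 9637 in Ribo-seq. Of 7 oocyte and eggshell genes, which mark adults, the summed level was 132 and 124 CPM (counts scaled to a common library total) in the rpl-5/rpl-33 pair, 1748 and 1666 in rps-10(0)/+, 1054 and 1043 in rps-23(0)/+, 190 and 664 in mc6 day 3 and 4723 and 4551 in mc6 day 4. In the tmC20 controls these genes summed to 1199 CPM at day 3, 5194 CPM at day 4 and 1311 CPM in the column of both headings. That column was thus close to the day 3 control. In the tmC5 controls the headings and these genes disagreed: 1 library headed day 3 stood at 5492 CPM and 1 headed day 4 at 451 CPM, against 311 and 5544 CPM in the other libraries headed day 3 and day 4. The labels call replicate 2 of tmC5 day 4 L4, so the library at 451 CPM may match its label, but its column cannot be told. For tmC5, comparisons by day are therefore given as headed, and again without the 2 libraries at 5492 and 451 CPM. The 7 germ-line genes summed to 627 and 927 CPM in the rpl-5/rpl-33 pair, below the 1159 to 2415 CPM of the mc6 controls. The 6 yolk genes summed to 4002 and 5575 CPM in the pair, against 1722 and 14332 CPM in mc6 day 3 and 116600 and 105200 CPM in mc6 day 4 controls. The 6 cuticle genes, which peak with the moults, summed to 7437 and 6238 CPM in the pair, against 1909, 2936, 734 and 1890 CPM in the mc6 controls, and to 9634 and 8727 CPM in rps-23(0)/+, against 1383 to 2532 CPM in the tmC5 controls. In rps-10(0)/+ they summed to 5085 and 5498 CPM, against 8170 CPM in the tmC20 day 3, 1841 CPM in the day 4 and 8256 CPM in the control of both headings. These lists move with the members' rise and share in several groups, and their part in the results was not tested.

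The mutated genes were checked first. In the rpl-5/rpl-33 pair, rpl-5 (WBGene00004416), which carries 5S rRNA into the large subunit with rpl-11, stood at 3605 and 5067 CPM, against 3508 and 2910 CPM in mc6 day 3 and 2157 and 2236 CPM in mc6 day 4 controls. CPM of single genes in single libraries are scaled by TMM, edgeR's trimmed mean of M-values. Its log2 fold change was 0.43 ± 0.30 (SE) against day 3 and 0.98 ± 0.30 against day 4 (adjusted p = 0.725 and 0.0565, edgeR quasi-likelihood test, 2 libraries a group). rpl-33 (WBGene00004447) stood at 917 and 630 CPM in the pair, against 820 and 683 CPM in mc6 day 3 and 658 and 543 CPM in mc6 day 4 controls. Its change was 0.04 ± 0.30 against day 3 and 0.37 ± 0.30 against day 4 (edgeR adjusted p = 0.982 and 0.380). The 2 pair libraries differed: of the 47 members, rpl-33 ranked as the 14th from the lowest ratio to the controls in library 1 and as the lowest in library 2, and rpl-5 ranked 13th and 27th. In the other mutants the mutated gene was lower, rps-10 by -0.50 and rps-23 by -0.40 against both ages together (edgeR adjusted p = 1.00 and 0.580), while neither passed the test.

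Levels differed widely between members. Per kilobase of the longest mRNA, over the 17 RNA libraries, rpl-2, which packs against the peptidyl transferase centre, was the highest at 11993 CPM per kb, followed by rpl-25.2 (9842) and rpl-6 (8534). Below them rla-0, the base of the acidic stalk that recruits translation factors, stood at 7310 CPM per kb. In CPM rpl-2 had 13476 and 16858 in the rpl-5/rpl-33 pair, against 10432 and 9816 in mc6 day 3 and 5560 and 7320 in mc6 day 4 controls, a change of 1.24 against day 4 (edgeR adjusted p = 0.0322). rpl-6 had 11031 and 9489 CPM in the pair, against 6359, 5669, 4216 and 3934 CPM in the same controls. In neither gene did the groups overlap. The lowest per kilobase were rpl-22 (764), rpl-24.2 (177) and rpl-41.2 (53.6 CPM per kb). rpl-24.2 is, by sequence, the worm counterpart of Rlp24, a yeast assembly factor of the large subunit that leaves before the ribosome is mature. rpl-41.2 encodes one of the smallest known proteins, and stood at 7 to 22 CPM in the 17 libraries. Of the 46 neighbours in this order, 41 differed by less than 1 SD of the upper gene over the 11 control libraries. The exceptions were the steps below rpl-25.2, rpl-15, rpl-11.1, rpl-22 and rpl-24.2. Both members of the mutated pair lay in the middle and lower part, rpl-5 at 3028 and rpl-33 at 1540 CPM per kb.

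Together the 47 genes took 12.9% and 12.4% of the RNA counts in the rpl-5/rpl-33 pair, against 10.2% and 9.23% in mc6 day 3 and 7.72% and 7.26% in mc6 day 4 controls. They took 10.2% and 10.6% in rps-10(0)/+, against 8.74% in the tmC20 day 3, 7.28% in the day 4 and 8.07% in the library of both headings. In rps-23(0)/+ the share was 10.98% and 10.99%, against 7.40% and 9.67% in tmC5 columns headed day 3 and 9.82% and 6.86% in those headed day 4. In each mutant both libraries lay above all controls of their balancer. The low tmC5 shares, 7.40% and 6.86%, were those of the libraries with high oocyte genes. All these shares are of total counts, so a high yolk share lowers them. Yolk genes took 11.7% and 10.5% of the counts in mc6 day 4 controls, against 0.40% and 0.56% in the pair. They took 8.88% in the tmC20 day 4 control, and 7.55% and 9.10% in those 2 tmC5 libraries. Their part in the gaps was not tested. At this depth the 95% Wilson interval of library 1 of the pair ran from 12.8% to 13.0%, which covers counting error only.

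**Figure D1:**
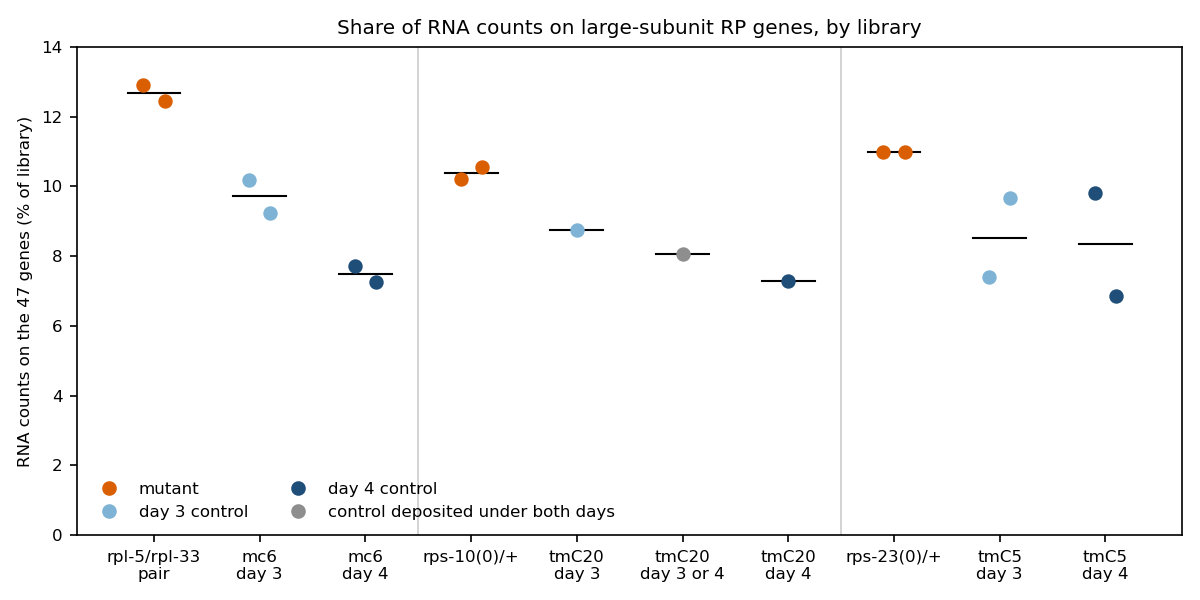
Share of each library's RNA counts on the 47 large-subunit RP genes (y axis, %), by group (x axis); points are libraries and lines are group means. The mutant libraries sit between 10.2% and 12.9%, each above the controls of its balancer, and the tmC5 controls split within both days. Shares are of all counts, yolk genes included.

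Against day 4 controls, 27 of the 47 genes rose in the rpl-5/rpl-33 pair and none fell past the test, with a median log2 fold change of 1.10 over the 47 (edgeR, adjusted p under 0.05). Among all 9416 genes tested, 7.15% were called higher and 3.92% lower in that comparison, and the median of all genes was 0.05. Against day 3 controls the median was 0.69 and 43 of 47 were higher, yet 0 passed (24 at an unadjusted p under 0.05, 3 by DESeq2, by which 0.86% of all genes were higher), with 0.329% of all genes called higher and 0.319% lower. Against both ages together 17 rose, with a median of 0.91 and 2.88% of all genes called higher and 0.754% lower. Of those 17, 16 were also among the 27, and rpl-25.2 was the exception. In 32 members both pair libraries lay above every mc6 control and in 0 below, where the groups did not overlap, in either direction, in 30.3% of all genes.

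The largest change against both ages was that of rpl-39, one of the smallest ribosomal proteins, which lines the exit tunnel. It stood at 815 and 467 CPM in the pair, against 291 and 183 CPM in mc6 day 3 and 153 and 152 CPM in mc6 day 4 controls. Both pair libraries were above all controls, and library 1 was much higher than library 2. The log2 fold change was 1.75 ± 0.29 (edgeR adjusted p = 0.00949), and against day 4 alone 2.07 ± 0.36 (edgeR adjusted p = 0.0149).
rpl-36.A followed, with 1460 and 932 CPM in the pair, against 465 and 462 CPM in mc6 day 3 and 277 and 402 CPM in mc6 day 4 controls. Its change against both ages was 1.59 ± 0.27 (edgeR adjusted p = 0.0109). Again the groups did not overlap, and library 1 was the higher.
rpl-36 stood at 2130 and 1372 CPM in the pair, against 790 and 714 CPM in mc6 day 3 and 540 and 593 CPM in mc6 day 4 controls, a change of 1.42 ± 0.27 (edgeR adjusted p = 0.0175).

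All 3 acidic stalk genes, whose proteins draw elongation factors to the ribosome, passed the test against day 4 and none did against day 3. rla-2 had 1127 and 967 CPM in the pair, against 632 and 498 CPM in mc6 day 3 and 340 and 362 CPM in mc6 day 4 controls. No library overlapped with the other group, and the change against day 4 was 1.58 ± 0.27 (edgeR adjusted p = 0.0146, the lowest of the 47 in that comparison). rla-1 had 3991 and 3401 CPM in the pair, against 2083 and 1744 CPM in mc6 day 3 and 1334 and 1391 CPM in mc6 day 4 controls, a change of 1.44 ± 0.28 against day 4 (edgeR adjusted p = 0.0195). rla-0, on which both sit, had 12614 and 11684 CPM in the pair, against 7148 and 6935 CPM in mc6 day 3 and 6314 and 5287 CPM in mc6 day 4 controls. It rose against day 4 (1.07, edgeR adjusted p = 0.0423) and missed the threshold against both ages (0.93, adjusted p = 0.0575).
rpl-23 had 1297 and 1261 CPM in the pair, against 814 and 666 CPM in mc6 day 3 and 452 and 482 CPM in mc6 day 4 controls (1.45 against day 4, edgeR adjusted p = 0.0185). rpl-24.1 had 4401 and 3292 CPM in the pair, against 1844 and 1805 CPM in mc6 day 3 and 1042 and 1461 CPM in mc6 day 4 controls (1.62, edgeR adjusted p = 0.0210). In both genes the pair lay above every control. Of the other genes called against day 4, rpl-21 rose by 1.48 and rpl-34 by 1.50 (edgeR adjusted p = 0.0222 and 0.0225). The last to pass were rpl-19 (1.07, adjusted p = 0.0464) and rpl-25.1 (2.10, 0.0468). Just outside, rpl-18 had 0.92 (0.0514) and rpl-43 0.96 (0.0529).

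The pair libraries were uneven. Over the 47 genes the log2 ratio of library 1 to library 2 had a median of 0.04 and an SD of 0.43, with a range of -0.92 in rpl-27 to 0.95 in rpl-29, and 10 genes differed by more than 0.5. In rps-23(0)/+ the SD was 0.12, with 0 genes over 0.5, and in rps-10(0)/+ 0.18, with 1. The short genes rpl-29, rpl-36, rpl-36.A and rpl-39 were higher in library 1. Other genes under 500 bases were lower there, such as rpl-27 (1365 and 2580 CPM) and rpl-43 (1159 and 1666 CPM). Over the 47 genes, Pearson's r of this ratio with log2 mRNA length was -0.37. For the 20 members with an mRNA under 500 bases, the median change of the pair against both ages was 1.00, and for the 27 longer ones 0.89. Across the 47 genes, Pearson's r of the change with log2 mRNA length was -0.32 for the pair, 0.31 for rps-10(0)/+ and -0.09 for rps-23(0)/+. This is a description across genes, which share libraries. The part of fragment length in these changes was not tested.

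The counts of called genes depended on single libraries. Against day 4, 27 became 0 without library 1 of the pair or without either mc6 day 4 library. It became 9 without either mc6 day 3 or either rps-10(0)/+ library, 11 without library 2 of the pair and 12 without either rps-23(0)/+ library. Against both ages, 17 became 0 without library 1 of the pair or the first mc6 day 4 library, 3 without the second, 6 or 9 without an mc6 day 3 library, 7 without either rps-10(0)/+ library, and 9 without library 2 of the pair or either rps-23(0)/+ library. Leaving out any tmC5 library raised the count against both ages above 17. Without the 2 tmC5 libraries whose stage genes go against their heading, the counts were 23 against day 3, 36 against day 4 and 33 against both ages, where 5.67%, 25% and 18.2% of all genes were called higher. Fitted alone with its own controls, the pair had 3 genes called against day 3, 32 against day 4 and 29 against both ages (3.42%, 23.1% and 15.8% of all genes). The median change stayed positive in each of these fits.

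**Figure D2:**
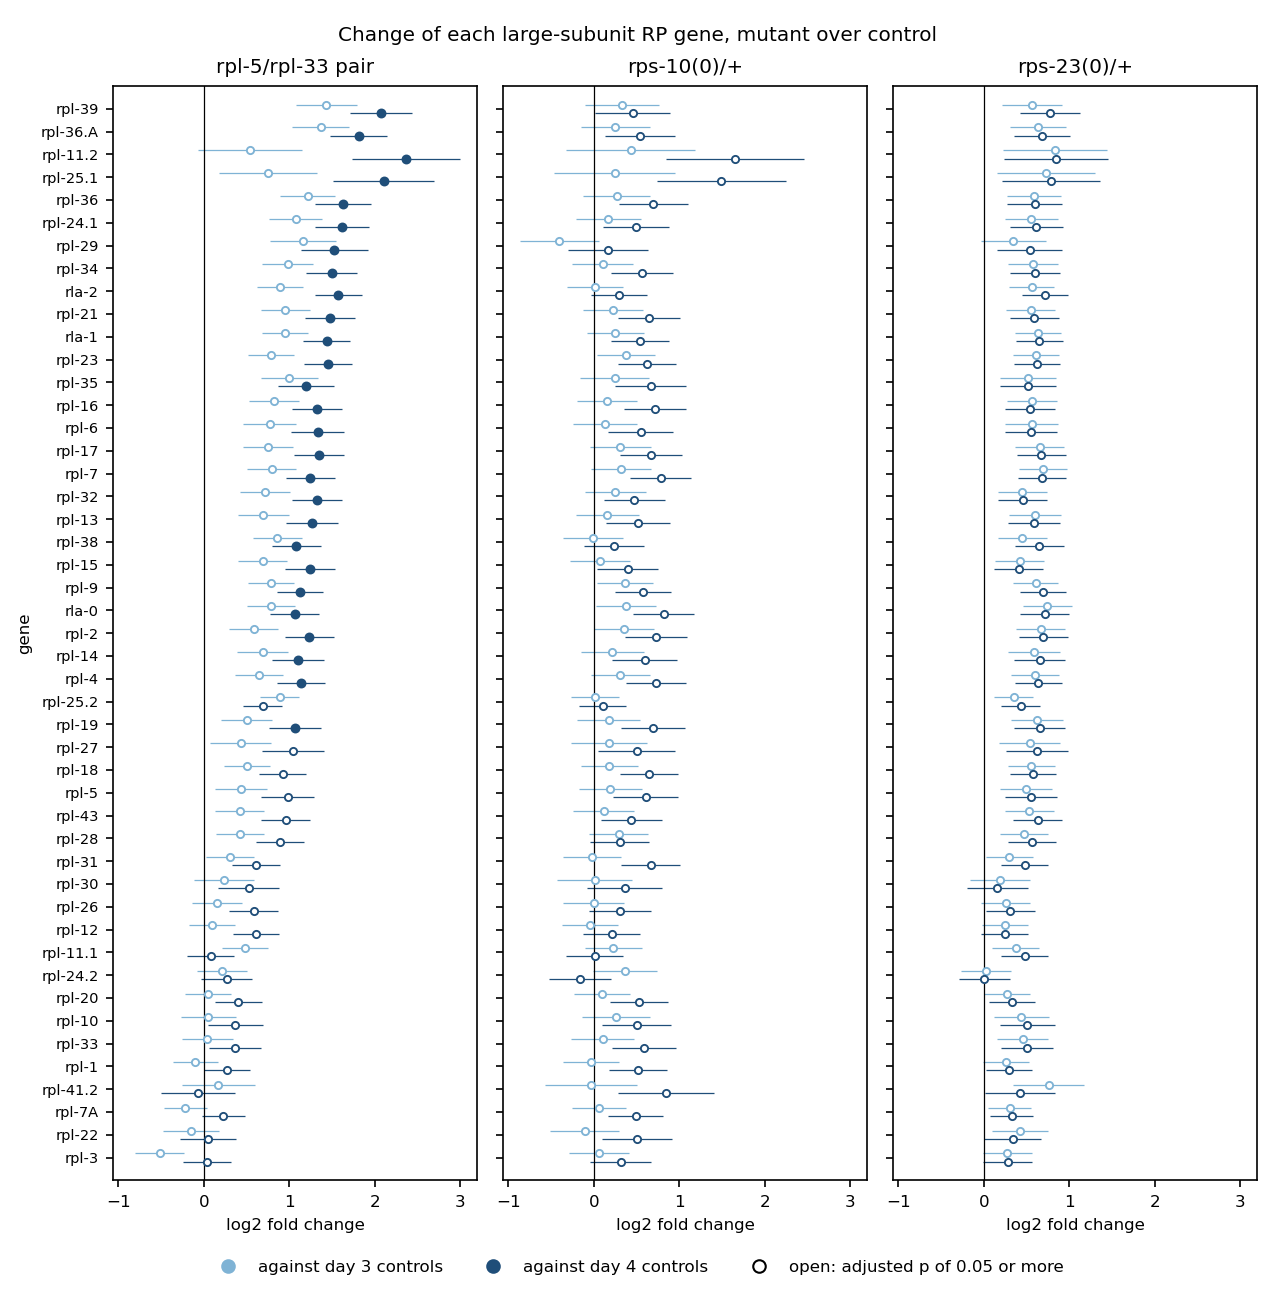
log2 fold change of each of the 47 genes (rows) with its SE for the rpl-5/rpl-33 pair, the rps-10 and the rps-23 mutant (panels) over day 3 and day 4 controls; filled points passed the test. Filled points occur in the first panel alone, 27 of them, all against day 4 controls, and rpl-3, rpl-7A and rpl-22 lie lowest against day 3.

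In rps-10(0)/+, no member passed the test. The tmC20 day 3 and day 4 arms hold 1 library each, which the fit assumes to vary like the other groups. Against day 3 controls 39 of 47 were higher, with a median of 0.18 (0 at an unadjusted p under 0.05, 0 by DESeq2). Against day 4 controls 46 of 47 were higher, with a median of 0.54 (1 at an unadjusted p under 0.05). Against both ages the median was 0.33, with 45 higher and 2 lower. Of all genes, 0.0212%, 0.0425% and 0.0531% were called higher in these comparisons and 0.0212%, 0.0319% and 0.0319% lower, so few genes of any kind passed. In 31 members both mutant libraries lay above all 3 tmC20 controls and in 0 below (19.7% of all genes did not overlap, in either direction). rla-0 had 9541 and 9023 CPM in rps-10(0)/+, against 7117 CPM in the day 3, 5263 in the day 4 and 5667 CPM in the control of both headings. rpl-11.2 had the highest change, 0.91 against both ages, with 3631 and 3750 CPM in rps-10(0)/+, against 2730 CPM in the day 3, 1174 in the day 4 and 2358 CPM in the control of both headings. Here the groups did not overlap, and the day 4 control was by far the lowest. At the other end were rpl-29 and rpl-24.2, the 2 members that were not higher. rpl-29 had 265 and 205 CPM in rps-10(0)/+, against 310, 201 and 209 CPM in the controls, and rpl-24.2 had 102 and 72 CPM in rps-10(0)/+, against 67, 100 and 97 CPM. rla-1 had 1903 and 1945 CPM in rps-10(0)/+, against 1616, 1389 and 1322 CPM, with no overlap, whereas rla-2 had 480 and 489 CPM, against 480, 435 and 394 CPM, and overlapped. Fitted alone, with 1 residual degree of freedom, rps-10(0)/+ had 2, 38 and 31 members called higher against day 3, day 4 and both ages, where 3.18%, 25.7% and 11.8% of all genes were called higher.

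In rps-23(0)/+ all 47 genes were higher against each control age, and none passed the test. The medians were 0.55 against columns headed day 3, 0.58 against day 4 and 0.57 against both, with 7, 11 and 21 genes at an unadjusted p under 0.05 and 0 by DESeq2 in each. Of all genes, 0.181%, 0.255% and 1.36% were called higher and 0.106%, 0.138% and 0.425% lower. In 42 members both mutant libraries lay above all 4 tmC5 controls and in 0 below (24.9% of all genes, in either direction). The change was more even than in the pair: its quartiles over the members were 0.42 and 0.63 against both ages, against 0.38 and 1.11 in the pair. rla-0 again led by unadjusted p, with 9194 and 9728 CPM in rps-23(0)/+, against 4763 and 6541 CPM in columns headed day 3 and 7046 and 4506 CPM in those headed day 4. Its change against both ages was 0.73 ± 0.24 (edgeR adjusted p = 0.184). rpl-39 had 354 and 253 CPM in rps-23(0)/+, against 169 and 242 CPM in columns headed day 3 and 200 and 155 CPM in those headed day 4, a change of 0.67. rpl-24.2 changed least (0.02), with 105 and 95 CPM in rps-23(0)/+, against 84, 112, 117 and 83 CPM in the controls. The largest changes were those of rpl-11.2 (0.84) and rpl-25.1 (0.76), whose controls were split. rpl-11.2 had 4058 and 4526 CPM in rps-23(0)/+, against 1134 and 3674 CPM in columns headed day 3 and 3812 and 953 CPM in those headed day 4. Of the mutated genes of the other strains, rpl-5 had 3844 and 3909 CPM in rps-23(0)/+, against 2105 to 3269 CPM in the controls, and rpl-33 had 875 and 830 CPM, against 467 to 734 CPM.
Without the 2 tmC5 libraries whose stage genes go against their heading, 0 members were called higher against day 3, with a median of 0.25, 23 against day 4, with a median of 0.87, and 3 against both ages (2.51%, 18.5% and 10.8% of all genes).

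The mutants were compared with each other through the difference of their changes against both ages. No member passed for any of the 3 differences (edgeR; 11, 2 and 0 at an unadjusted p under 0.05). The median difference was 0.47 for the pair over rps-10(0)/+, 0.28 for the pair over rps-23(0)/+ and 0.17 for rps-23(0)/+ over rps-10(0)/+. Of all genes 0.202%, 0% and 0.106% were called. The largest was rpl-39, whose change in the pair exceeded that in rps-10(0)/+ by 1.39 ± 0.44 and that in rps-23(0)/+ by 1.08 ± 0.43 (edgeR adjusted p = 0.362 and 0.689).

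The controls were also compared by age. Between mc6 day 4 and day 3 controls 44 of 47 were lower at day 4, with a median of -0.46, and none passed (5 at an unadjusted p under 0.05; 0.0531% of all genes were called lower). Between the tmC20 libraries of 1 heading the median was -0.37, with 45 lower. Between the tmC5 columns as headed it was -0.03, with 36 lower. The largest change in mc6 was that of rpl-11.2 (-1.83), then rpl-25.1 (-1.35), and the members that were higher at day 4 were rpl-11.1 (0.40), rpl-41.2 (0.24) and rpl-25.2 (0.20).

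Which genes departed from the rise that the 47 shared was tested by scaling each library to the members themselves. In the rpl-5/rpl-33 pair against both ages 5 fell behind and 1 ran ahead, where 15.5% of all genes were lower on this scale and 1.58% higher. Lower calls were thus no more frequent among the members than among all genes, and the 1 higher call was near the share of all. Over all genes the median on this scale was -0.84, and with so many genes called, the adjustment over all genes was lenient. For example, rpl-39 passed with an unadjusted p of 0.0075 (edgeR). rpl-3, a protein of the peptidyl transferase centre and the longest mRNA of the set, fell behind most. It stood at 3158 and 4385 CPM in the pair, against 5612 and 5148 CPM in mc6 day 3 and 3540 and 3809 CPM in mc6 day 4 controls. In the pair it was 1.77 and 2.51 times the median member of the library, against 3.33 to 3.78 times in the 4 mc6 controls and 3.15 to 3.80 times in the 11 other libraries. Its change relative to the members was -1.11 ± 0.17 (edgeR adjusted p = 0.00709), and it was also called against day 3 alone (-1.15, edgeR adjusted p = 0.0173, 1.79% of all genes called lower, 0.223% higher) and day 4 alone (-1.07, edgeR adjusted p = 0.0104). On the ordinary scale its change was -0.24 ± 0.25 (edgeR adjusted p = 0.583), so it was not called lower in CPM.

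rpl-7A stood at 1447 and 1622 CPM in the pair, against 1892 and 1667 CPM in mc6 day 3 and 1306 and 1311 CPM in mc6 day 4 controls. It fell behind the members by 0.86 on the log2 scale (edgeR adjusted p = 0.0185), to 0.810 and 0.929 times the median member, against 1.21 to 1.23 times in the mc6 controls. rpl-1, the protein of the mobile stalk at the exit site for tRNA, stood at 1177 and 1170 CPM in the pair, against 1330 and 1179 CPM in mc6 day 3 and 1050 and 900 CPM in mc6 day 4 controls (-0.78, edgeR adjusted p = 0.0254). rpl-3 and rpl-7A are among the worm RP genes known to make alternatively spliced mRNAs that are degraded by nonsense-mediated decay, and counts per gene do not separate such forms.
rpl-20 stood at 1455 and 1420 CPM in the pair, against 1438 and 1335 CPM in mc6 day 3 and 1181 and 989 CPM in mc6 day 4 controls (-0.64, edgeR adjusted p = 0.0383). rpl-22, which yeast can do without, stood at 279 and 452 CPM in the pair, against 426 and 383 CPM in mc6 day 3 and 427 and 280 CPM in mc6 day 4 controls (-0.91, edgeR adjusted p = 0.0424). One pair library lay below all 4 controls and the other above them. rpl-39 ran ahead by 0.89 (edgeR adjusted p = 0.0472), at 0.456 and 0.267 times the median member in the pair, against 0.134 to 0.186 times in the mc6 controls.
Just outside the threshold were rpl-26 (-0.50, edgeR adjusted p = 0.0502) and rpl-33 (-0.66, 0.0529), while rpl-5 kept with the members (-0.16, 0.496). Against day 4 alone 10 were lower and 2 higher, rpl-33 among the lower (-0.73, edgeR adjusted p = 0.0331; 38.5% of all genes called lower, 4.06% higher). Neither small-subunit mutant had a member that departed past the test against both ages (edgeR, 1 in rps-10(0)/+ and 0 in rps-23(0)/+ at an unadjusted p under 0.05). Of all genes 0.0637% were lower and 0.0425% higher on this scale in rps-10(0)/+, and 0.924% and 0.52% in rps-23(0)/+. There rpl-3 was at -0.13 ± 0.18 and -0.25 ± 0.17.
These calls rested on single libraries too. In place of 6 members, 0 passed without library 1 of the pair, 2 members (both lower) passed without the second mc6 day 3 library, either mc6 day 4, either rps-10(0)/+ or either rps-23(0)/+ library, and 4 without library 2 of the pair. It was 11 without either tmC5 library headed day 4, 9 without either headed day 3, and 16 without the 2 tmC5 libraries whose stage genes go against their heading. rpl-3 and rpl-7A were called in 18 of 19 such fits, with changes of -1.36 to -0.92 and -0.94 to -0.81, and rpl-1, rpl-20 and rpl-39 in 10.

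**Figure D3:**
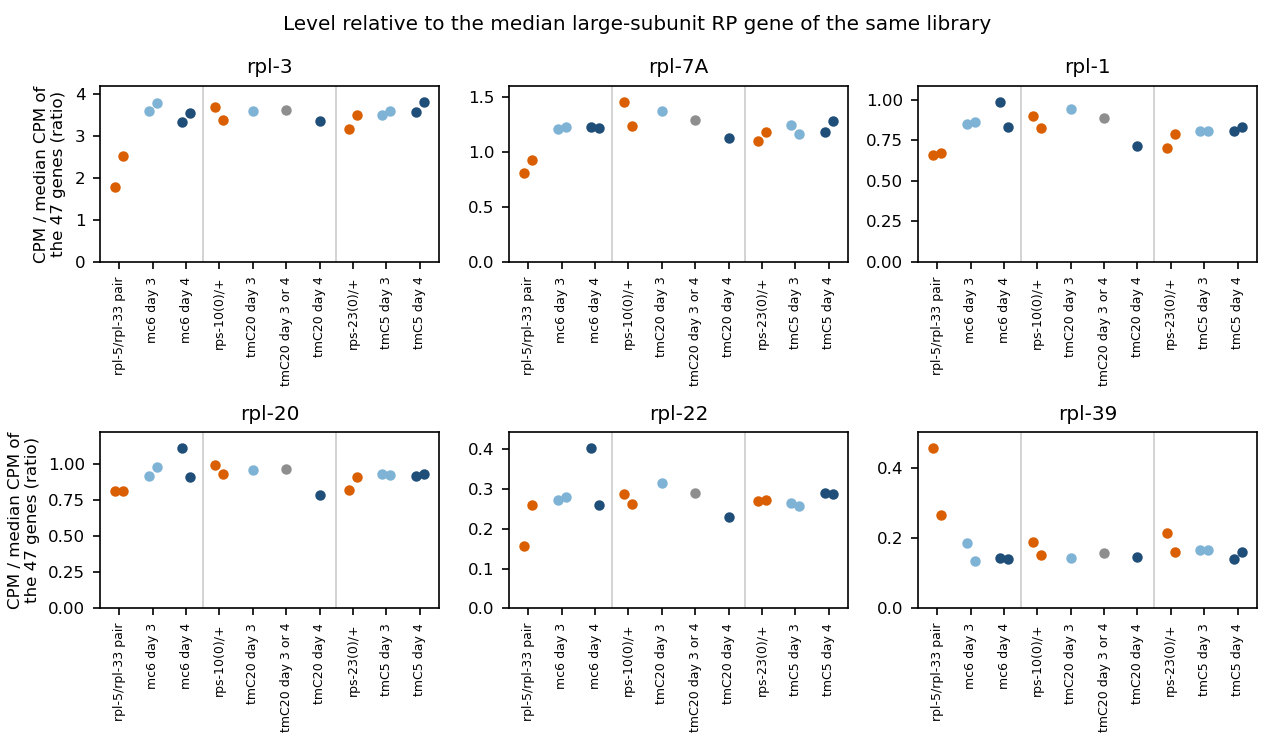
Level of 6 genes relative to the median of the 47 genes in the same library (y axis, ratio of CPM), by group (x axis); points are libraries, orange for mutants, light and dark blue for day 3 and day 4 controls, grey for the control of both headings. In the rpl-5/rpl-33 pair rpl-3 lies at 1.77 and 2.51, below the 3.15 to 3.80 of the other libraries, and rpl-39 lies above them.

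Of the paralog pairs, rpl-11.1 and rpl-11.2 encode the protein that joins the 5S rRNA complex with rpl-5. rpl-11.2 took 82.0% and 81.4% of the counts of both genes in the rpl-5/rpl-33 pair, against 81.8% and 80.2% in mc6 day 3 and 41.5% and 53.0% in mc6 day 4 controls. The share in the pair was close to that of day 3, and the day 4 controls lay far below. In CPM rpl-11.1 had 1103 and 1485 in the pair, against 959, 892, 1267 and 1180 in the 4 controls, which overlapped, while rpl-11.2 had 5017 and 6485, against 4301 and 3608 at day 3 and 898 and 1331 at day 4, which did not. rpl-11.2 rose against day 4 (2.37 ± 0.64, edgeR adjusted p = 0.0427), and against both ages its change was 1.45 (adjusted p = 0.127). rps-10(0)/+ gave 75.04% and 73.4%, against 71.4% in the day 3, 47.9% in the day 4 and 68.1% in the control of both headings. rps-23(0)/+ gave 72.4% and 76.3%, against 46.3% and 79.2% in tmC5 columns headed day 3 and 80.9% and 43.9% in those headed day 4. The low tmC5 values are those of the libraries with high oocyte genes. Among the controls, the shares of 53.0% or less were those of the 5 libraries whose oocyte genes summed to 4551 CPM or more.

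The rpl-25 pair, for a protein beside the exit tunnel, split in the same way. rpl-25.1 took 15.3% and 18.2% in the rpl-5/rpl-33 pair, against 19.4% and 16.8% in mc6 day 3 and 7.15% and 6.81% in mc6 day 4 controls. It took 16.4% and 14.3% in rps-10(0)/+, against 13.3%, 6.43% and 12.4% in the tmC20 day 3, day 4 and both-headings libraries. In CPM rpl-25.1 had 1451 and 1615 in the rpl-5/rpl-33 pair, against 991 and 832 in mc6 day 3 and 395 and 318 in mc6 day 4 controls, while rpl-25.2 had 8030 and 7263 in the pair, against 4122, 4134, 5136 and 4348 in the 4 controls. Both paralogs were higher in the pair libraries than in every mc6 control.
rpl-24.2 took 2.64% and 4.27% of its pair with rpl-24.1 in the rpl-5/rpl-33 pair, against 6.37% and 5.45% in mc6 day 3 and 10.7% and 6.15% in mc6 day 4 controls. In rps-23(0)/+ it took 4.07% and 3.87%, against 5.40% to 6.12% in the 4 tmC5 controls. In rps-10(0)/+ it took 5.65% and 3.53%, against 3.97%, 5.79% and 6.94% in the tmC20 day 3, both-headings and day 4 libraries, so these overlapped. rla-2 took 22.1% of the counts of rla-1 and rla-2 on average in the rpl-5/rpl-33 pair, against 21.6% in the mc6 controls. In rps-10(0)/+ it took 20.13% and 20.08%, below all 3 tmC20 controls (22.9% to 23.8%), and in rps-23(0)/+ 23.7% and 21.4%, against 21.3% to 23.6% in the tmC5 controls, which overlapped. None of the 12 tests passed: the lowest exact permutation p (two-sided) was 0.133, the smallest that 2 libraries against 4 allow (0.480 adjusted over the 12), and 2 against 3 cannot go below 0.200. rpl-41.1 is absent from the RNA count table, so rpl-41.2 was not set against it. Reads that match both copies of a pair would make its split uncertain, and their number was not measured.

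**Figure D4:**
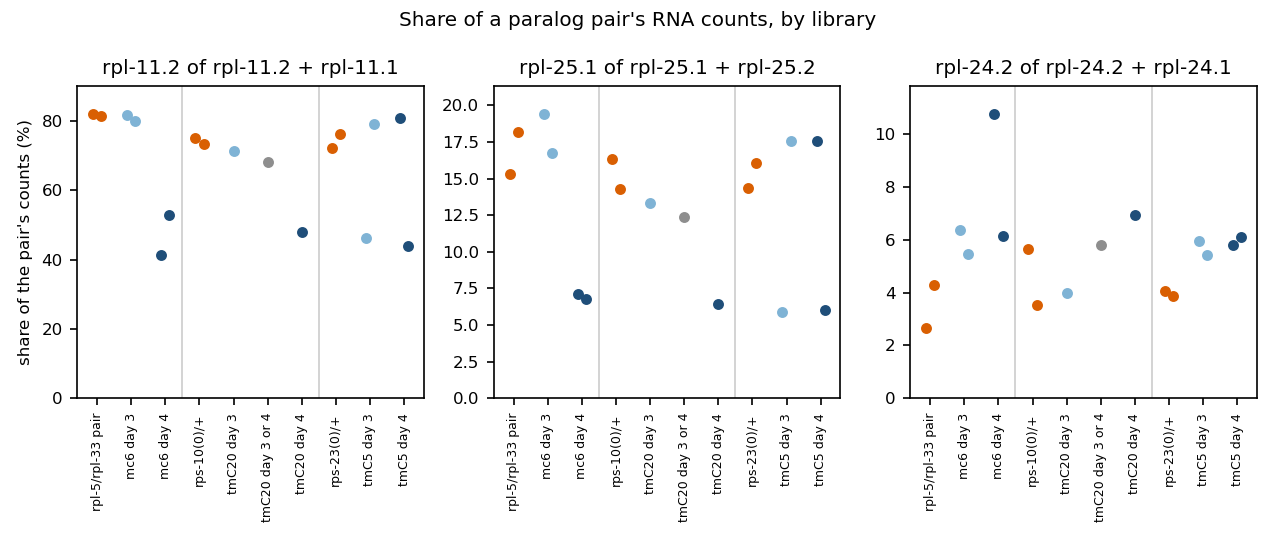
Share of a paralog pair's RNA counts that the first gene took (y axis, %), by group (x axis), for rpl-11.2, rpl-25.1 and rpl-24.2; points are libraries, coloured by mutant, day 3 and day 4. rpl-11.2 lies at 41.5% to 53.0% in the mc6 day 4 controls and above 80% in the rpl-5/rpl-33 pair and the mc6 day 3 controls.

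Other genes of the ribosome and its assembly were counted for comparison. Of 31 small-subunit genes (rps-), 13 rose in the pair against day 4 and 9 against both ages, with medians of 1.06 and 0.80, and none passed in rps-10(0)/+ or rps-23(0)/+, with medians of 0.35 and 0.57 against both ages (edgeR; 1.10, 0.91, 0.33 and 0.57 in the 47 members). ubq-2, which encodes the large-subunit protein RPL40 fused to ubiquitin and so lies outside the symbol rule, rose in the pair by 1.25 against day 4 and 1.11 against both ages. Of 17 ribosome assembly genes 16 were tested and 0 passed in any comparison (edgeR; at most 4 at an unadjusted p under 0.05), with a median of 0.10 in the pair against both ages. Of 9 translation factor genes 1 rose in the pair against day 4 and 0 against both ages.

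Across the 17 RNA libraries, the gene outside the set whose log2 CPM was most like the mean of the 47 was rps-7 (Pearson's r = 0.99), followed by Y37E3.8 (0.98), rps-18 (0.98), lec-6 (0.98) and spp-8 (0.97), out of 8627 genes compared. Small-subunit genes, found by symbol, were 10 of the 20 nearest. Large-subunit genes under symbols other than rpl- and rla- were not searched for among them. The members differed in how closely they followed the other 46: r was lowest for rpl-11.1 (0.09), rpl-3 (0.36), rpl-41.2 (0.38), rpl-24.2 (0.47) and rpl-22 (0.54). The libraries differ in stage and genotype together, so these values describe and test nothing.

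Ribo-seq was shallow. The table holds 50 symbols of this kind, 3 of which (rpl-37, rpl-42 and rpl-41.1) are absent from the RNA count table and had 0, 0 and 1 footprint counts. Pooled over 20 libraries, the 50 had 2559 of 66009 counts, or 3.88%, whereas the 47 took 9.37% of pooled RNA counts. These shares have unlike bases: the Ribo-seq counts cover 20189 genes and the RNA counts 9532. The pooled libraries also differ, 8 mutant and 12 control in Ribo-seq against 6 and 11 in RNA-seq. By library their share was 2.44% and 2.37% in rpl-33(0)/+ and 3.19% and 3.23% in rpl-5(0)/+, against 3.39% and 2.20% in mc6 day 3 and 5.53% and 4.05% in mc6 day 4 controls. It was 6.21% and 4.80% in rps-10(0)/+, against 4.97% and 4.29% in tmC20 day 3 and 6.29% and 6.08% in day 4 controls. It was 5.14% and 2.83% in rps-23(0)/+, against 3.83% and 2.83% in tmC5 day 3 and 5.43% and 5.02% in day 4 controls. In each mutant at least 1 library lay at or below some control, so the separation seen in RNA was not seen here. With 41 counts of 1681, the Wilson 95% interval of the first rpl-33(0)/+ library ran from 1.80% to 3.29%.

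Single genes had few footprints. rpl-4 led with 173 pooled counts, 64 in the 8 mutant and 109 in the 12 control libraries, followed by rpl-3 (48 and 78), rpl-15 (45 and 69), rla-0 (38 and 70) and rpl-5 (36 and 64). The mutants held 30234 and the controls 35775 counts in all. rpl-5 had 10 counts in the 2 rpl-5(0)/+ libraries, against 11 in the mc6 day 3 and 13 in the mc6 day 4 libraries. rpl-33 had 3 counts in rpl-33(0)/+, against 3 and 6. These counts are too few for a test of either gene, and neither passed the filter. Relative to pooled RNA, the share of footprints was below 1 in 37 of the 47, with a median ratio of 0.588, against 1061 of 1801 and a median of 0.832 over genes with more than 100 RNA CPM. All these ratios carry the same difference in genes and libraries between the assays.
The paralogs stood apart. rpl-11.2 had 18 pooled footprints and rpl-11.1 87, although rpl-11.2 had 3040 RNA CPM and rpl-11.1 had 1196. Of those 18, 6 fell in the mc6 day 3 and 1 in the mc6 day 4 libraries. rpl-25.1 had 2 footprints at 736 RNA CPM and rpl-25.2 18 at 4729. Whether short fragments match both copies of a pair, and how such fragments were assigned, was not tested.

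**Figure D5:**
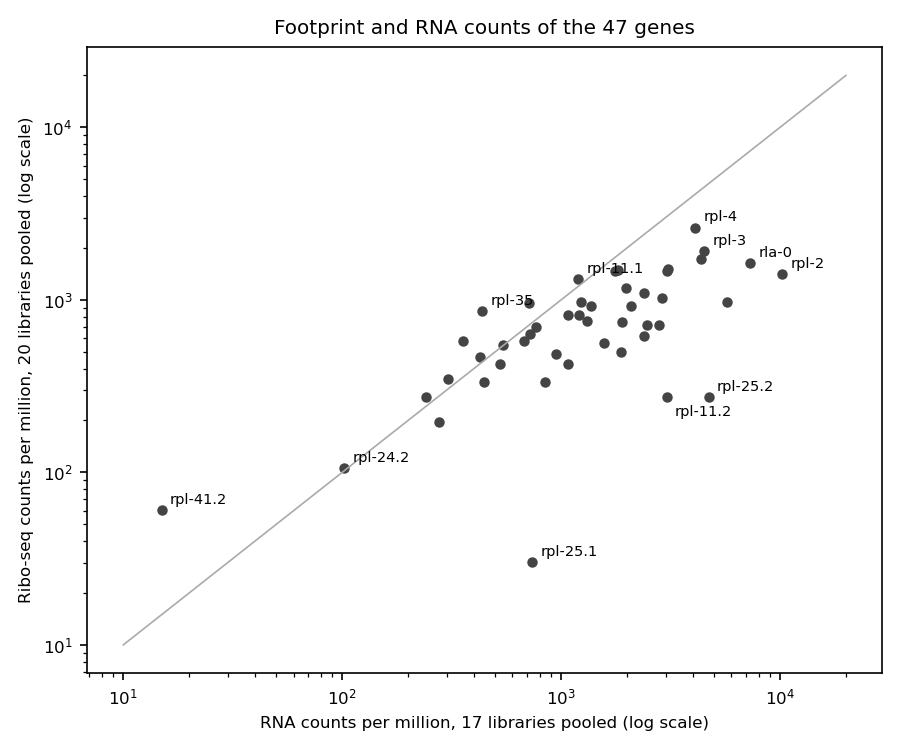
Pooled Ribo-seq CPM (y axis, log scale) against pooled RNA CPM (x axis, log scale) for the 47 genes; the line marks equal values. rpl-25.1, rpl-25.2 and rpl-11.2 lie farthest below the line, with 2, 18 and 18 footprints. Each axis is scaled to its own total, over 20189 genes for Ribo-seq and 9532 for RNA.

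Tests on Ribo-seq reached few members. Of 49 genes that passed the filter 5 were members, rla-0, rpl-3, rpl-4, rpl-7 and rpl-16, and 0 were called in any mutant (edgeR; 0 at an unadjusted p under 0.05), where 20.4% of the 49 were called in the rpl-33, 16.3% in the rpl-5, 0% in the rps-10 and 6.12% in the rps-23 mutant. rpl-3 had a change of -0.42 ± 0.83 in rpl-33(0)/+ and 0.65 ± 0.70 in rpl-5(0)/+ against both control ages. Translational efficiency (TE), the footprint count relative to the RNA count of a gene, could be fitted for 38 members among 507 genes. The pair served as RNA for both large-subunit mutants. RNA and Ribo-seq came from split lysates, but the fit held no term for the lysate, as the headings do not match all libraries. No member was called, nor any other gene (0%). The fitted TE was lower in 30 of the 38 members in the rpl-33, 20 in the rpl-5, 17 in the rps-10 and 23 in the rps-23 mutant, where the median of all 507 genes was 0.03, 0.49, 0.27 and 0.56. Of these members 5, 1, 2 and 4 had an unadjusted p under 0.05 in the same order (lowest edgeR adjusted p = 0.433). Some of these fits rest on groups with 0 footprints, so no size is given.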

How the data were processed

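Ribosome profiling and RNA-seq were performed on split lysates of whole worms. The authors deposited raw counts per gene, made with RiboFlow on the WBcel235 transcriptome, with footprints of 26 to 34 bases and UMI-collapsed Ribo-seq reads. Of the Ribo-seq columns, 6 belonged to no sample listed here and were not used. Counts were fitted with edgeR 4.0.16 in R 4.3.3 (quasi-likelihood test, TMM, filterByExpr), with all RNA groups in 1 fit, and p-values were adjusted over all 9416 genes tested by Benjamini-Hochberg (threshold 0.05). TE was fitted as the interaction of assay and mutant. For departures, each library was scaled by a size factor, the median ratio of its counts on the 47 genes to their geometric means over libraries. DESeq2 1.42.0, other scalings and filters, each mutant alone, and leaving out each library were alternatives. The members and lists were chosen with earlier results of these data known. Named with all libraries were the mutated genes, the stalk, the paralogs, up to 6 called genes by lowest p in each contrast, the 3 highest and lowest changes, and the ends of the order of levels, with some libraries given as a range. The scripts were tested on simulated counts. RNA libraries held 1017787 to 2384186 counts and Ribo-seq libraries 1081 to 9637. The total counts set the precision, and 95% Wilson intervals cover counting error only.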

Additional observations from a re-analysis of the deposited data

How the results depend on the processing

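In the rpl-5/rpl-33 pair the count of called members was 0 against day 3 controls in the main analysis and 3 with the pair fitted alone, 3 with DESeq2, 1 with identical columns as separate libraries and 23 without the 2 tmC5 libraries whose stage genes go against their heading, a setting chosen after seeing the data. Against both ages, 17 became 7 with library totals as the scaling, 29 with the pair alone and 33 without those tmC5 libraries. In rps-10(0)/+, 0 became 2, 38 and 31 against day 3, day 4 and both ages when fitted alone with 1 residual degree of freedom, and 3 and 2 against day 4 and both ages without those tmC5 libraries. In rps-23(0)/+, 0 became 23 against day 4 and 3 against both ages without them. Between mc6 day 4 and day 3 controls, 0 members called lower became 2 with the pair alone and 9 without those libraries. The 6 departures became 11 with at least 10 counts in every library and 16 without the same 2 libraries. The cause of these shifts was not tested.

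When single libraries were left out, the count ran from 0 to 33 in the pair against day 4, from 0 to 27 against both ages, from 0 to 1 between mc6 ages and from 0 to 11 for departures, and it was 0 throughout in the pair against day 3, in rps-10(0)/+, in rps-23(0)/+ and in Ribo-seq and TE. The median change of the 47 genes was positive in 245 of 245 settings of the 9 comparisons of mutants with controls. Library totals moved the median of all genes by -0.21 to -0.28.

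Same-numbered deviations correlated little: 0.00 and -0.01 for rps-10(0)/+ with rps-23(0)/+ and the pair, 0.05 and 0.02 for rps-23(0)/+ with the pair and tmC5 day 3. The mc6 and tmC20 controls were not compared, so this does not settle whether the samples were paired. With the replicate block, fitted only where headings carry numbers, 0 members were called against day 3 in any mutant and against day 4 in rps-10(0)/+, as without the block. The alternative without day 4 controls labelled L4 was not run as such: the tmC20 one is the column of both headings, without which rps-10(0)/+ had 0 members called in each comparison, and the tmC5 day 4 columns repeat a number, so that theirs could not be picked out, and DESeq2 size factors were not run for departures, which use their own scaling.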
